A study of Drosophila melanogaster with 6 samples.

Results

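Long noncoding RNA genes make transcripts, many of them polyadenylated, that resemble messenger RNAs but are not translated into a known protein. Antisense RNA genes are those read from the DNA strand opposite another gene. In Drosophila a few have known roles, such as the roX RNAs that coat the single male X chromosome and Hsromega, which organises nuclear speckles of RNA-binding proteins. Most others carry only an annotation number, and many lie inside or beside coding genes, so that a short read from such a place can be assigned to either gene.

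The genes described here are the 53 whose FlyBase symbol starts with lncRNA: (40 genes) or asRNA: (13 genes) and whose deposited value was 10 or more in at least 1 of the 6 libraries. They were taken from 2398 genes with such symbols (1908 lncRNA: and 490 asRNA:), of which 516 had any value above 0, and from 17617 genes in the files. For comparison, 6916 of the 13842 coding genes reached a value of 10. The members were chosen by their level in either genotype, so that levels are given as a description without a test.

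RNA came from dissected hindguts of adult female flies that were reared at 18°C, aged to 3 to 5 days and then kept for 7 days at 29°C. RasV12 hindguts carried byn-G4, tub-G80ts, U-gfp and U-RasV12 and expressed the oncogenic, constitutively active form of the GTPase Ras, and control hindguts carried byn-G4, tub-G80ts and U-gfp without it. The byn-G4 driver acts in hindgut enterocytes, the tub-G80ts repressor blocks it until the shift to the higher temperature, and GFP marks the cells in both genotypes. Each genotype had 3 libraries of 100 pooled hindguts, described in the labels as enterocytes and muscle. The protocol was QuantSeq, which reads the 3′ end of polyadenylated transcripts. Values therefore do not scale with transcript length, and most transcripts without a poly(A) tail are missed. The p-values measure the spread between these libraries.

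The deposited values are normalized counts, rounded to whole numbers, that sum to 997131, 1007773 and 1031380 in the RasV12 libraries and to 964629, 932389 and 1011488 in the control libraries. The reads behind the values were estimated from how often each low whole number occurs in each file. The estimates were about 988982 to 1402435 reads in RasV12 libraries and 686569 to 1048807 in control libraries. By these estimates a value of 10 rests on 9.81 to 14.1 reads in RasV12 libraries and on 7.12 to 11.2 reads in control libraries, and low values are coarse. Markers of visceral muscle summed to 3543 to 3805 in RasV12 libraries and to 9601 to 11092 in control libraries, and 9 of 9 were lower in RasV12. Hindgut markers summed to 527 to 628 in RasV12 libraries and to 753 to 1048 in control libraries, with 3 of 5 tested lower and 1 higher. Fat body markers summed to 2104 to 4119 in RasV12 libraries and to 3942 to 10425 in control libraries, with 2 of 4 tested lower. Ovary markers summed to 0 to 2 in RasV12 libraries and to 7 to 43 in control libraries, but 0 of 3 tested were called. Midgut markers stayed at or below 20. Hemocyte markers summed to 2 to 4 in RasV12 libraries and to 5 to 9 in control libraries, with NimC1 and eater at 0 in every library, and testis markers reached at most 1. In such bulk RNA, fewer cells of a type and less RNA per cell cannot be told apart. The part of these shifts in the changes of single RNAs was not tested.

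Where the 53 genes lie, an attribute the choice did not use, was taken from the Ensembl 115 annotation of build BDGP6.54, whose coordinates are those of dm6. They were spread over chromosomes X and 3R (12 genes each), 2L (10), 2R (9), 3L (8) and 4 (2). The X held 22.6% of them, against 12.5% of the other 2345 long noncoding RNA genes. Their exons summed to a median of 831 bp, against 659 bp in the others, and 58.5% had a single exon, against 65.1% of the others.

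More of the expressed genes lay on coding genes than of the others. Of the 53, 34 overlapped the body of a coding gene, 10 on the same strand (18.9%), 21 on the opposite strand (39.6%) and 3 on both (5.66%), and 19 (35.8%) overlapped none. Among the other 2345 genes the shares were 7.93% for the same strand, 33.7% for the opposite strand, 1.79% for both and 56.5% for no overlap. Exons overlapped a coding exon in 49.1% of the expressed genes, against 26.2% of the others. The 3′ end, where QuantSeq reads fall, lay inside a same-strand coding exon in 13.2% of the expressed genes, against 1.19% of the others. The sources used here do not state whether reads were counted by strand, so that a value on such a gene can hold reads of its coding partner. These shares are descriptions without a test.

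A handful of RNAs held most of the signal. The 53 genes took 1.87%, 2.08% and 2.49% of the RasV12 libraries and 3.12%, 1.79% and 1.54% of the control libraries, so that control replicate 1 was the highest and control replicate 3 the lowest. Of 53 genes, 3 had a mean value over 1000, 4 between 100 and 1000, 11 between 20 and 100, 11 between 10 and 20 and 24 under 10. Without the first 3, the share of the libraries was 0.167%, 0.123% and 0.132% in RasV12 and 0.112%, 0.148% and 0.113% in control. A value of 10 was reached in all 6 libraries by 13 genes and in only 1 library by 18.

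**Figure D1:**
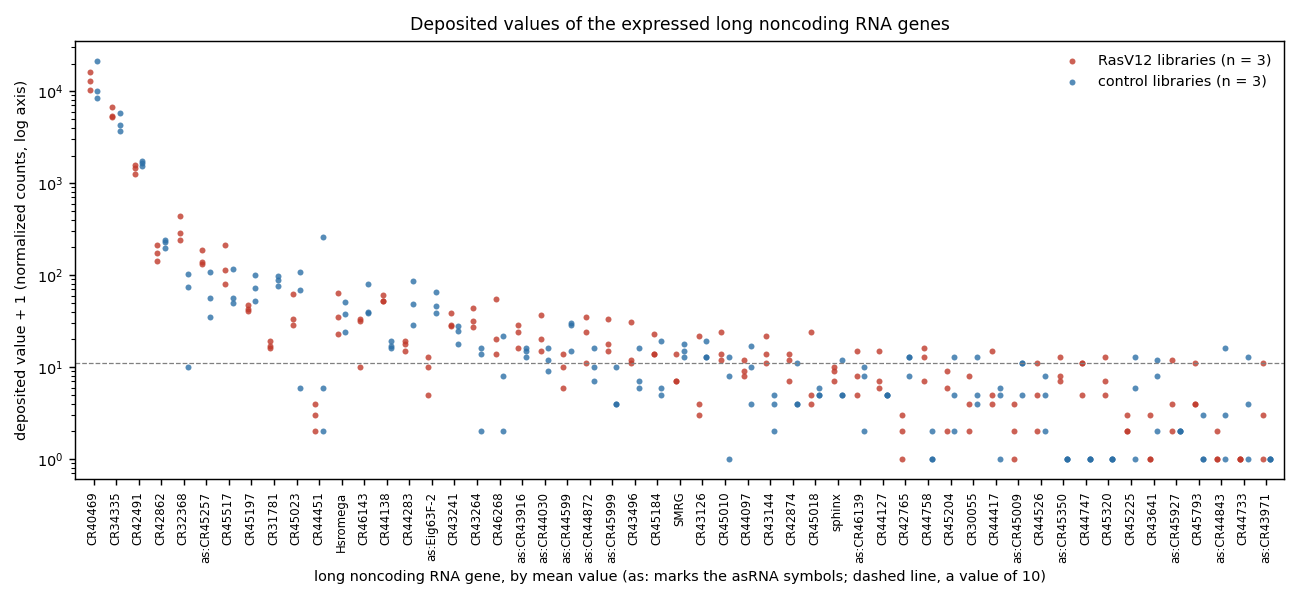
Deposited values (normalized counts) plus 1, on a log axis, of the 53 expressed long noncoding RNA genes, ordered by their mean, with 1 point per library for RasV12 (n = 3) and control (n = 3). The first 3 genes lie above 1000 in every library, and the points of most of the others lie under 100.

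The most abundant was lncRNA:CR40469, a single-exon gene of 214 bp at X:122493-122706, which overlaps no coding gene. It had values of 10339, 12869 and 16234 in RasV12 libraries and 21506, 10027 and 8403 in control libraries. These place it between rank 4 and rank 11 among all genes in RasV12 libraries and between rank 2 and rank 10 in control libraries. It supplied 53.8% to 71.5% of the value of all 53 genes, so that its level in control replicate 1 sets the high share of that library. The genotypes overlapped, with a log2 fold change of 0.08 ± 0.30 (SE) and an adjusted p of 0.884 (limma on log2(value + 1), Benjamini-Hochberg over 7155 genes), and the sign turned when RasV12 replicate 3 (-0.08), control replicate 2 (-0.06) or control replicate 3 (-0.18) was left out. Whether it shares reads with near-identical copies elsewhere could not be checked without the genome sequence.

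The next gene, lncRNA:CR34335 (X:3545750-3546110), lies in DIP-alpha on the same strand without touching an exon of it. DIP-alpha encodes an immunoglobulin-domain cell surface protein of neurons and had values of at most 6. The values of lncRNA:CR34335 were 5392, 5260 and 6657 in RasV12 libraries and 5850, 3725 and 4310 in control libraries, which overlap (log2 fold change 0.34 ± 0.21, limma adjusted p 0.303). DIP-alpha was too low to be tested, and reads that lncRNA:CR34335 may share with near-identical copies could not be checked here either.

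The third gene, lncRNA:CR42491 (X:762615-763810), could not be told apart from RpL22, which encodes a protein of the large ribosomal subunit. It lies on the same strand, shares 377 bp of exon with RpL22 and ends inside an RpL22 exon. Its values were 1245, 1570 and 1452 in RasV12 libraries and 1658, 1521 and 1764 in control libraries. RpL22 had 1400, 1757 and 1610 in RasV12 libraries and 1840, 1716 and 1950 in control libraries. The ratio of the noncoding to the coding value stayed between 0.886 and 0.905 in all 6 libraries, with an SD of 0.012 on the log2 scale. The log2 fold changes were -0.22 for lncRNA:CR42491 and -0.21 for RpL22 (limma adjusted p 0.477 and 0.479). It also holds the snoRNA Psi18S-531, named for a pseudouridylation site of ribosomal RNA, in its span.

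A second pair behaved in the same way. The gene lncRNA:CR45023 (3R:20358839-20360281) ends 26 bp before MtnC, a metallothionein gene that binds metal ions, on the same strand. Its values were 62, 28 and 32 in RasV12 libraries and 107, 68 and 5 in control libraries, while MtnC had 60, 23 and 33 in RasV12 libraries and 107, 66 and 5 in control libraries. The pair differed by at most 5 in any library, and both were low in control replicate 3. The change of lncRNA:CR45023 was 0.14 ± 0.80 (limma adjusted p 0.925), and it turned to -1.14 without control replicate 3 and to -0.20 without RasV12 replicate 1. Of 28 pairs of a member and an overlapping or adjoining coding gene with mean values of 10 or more, these were the 2 whose log2 ratio had an SD under 0.2. The next lowest SDs were 0.421 for lncRNA:CR43241 with CG42748 and 0.438 for lncRNA:CR45197 with sgg.

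Among the other abundant RNAs, lncRNA:CR42862 (3L:224106-230964) overlaps CG33229 on the same strand and had 211, 142 and 173 in RasV12 libraries and 229, 242 and 198 in control libraries (log2 fold change -0.36 ± 0.24, limma adjusted p 0.340). The gene lncRNA:CR45517 (X:5428483-5429256) overlaps no coding gene and had 212, 80 and 113 in RasV12 libraries and 49, 115 and 56 in control libraries (0.86 ± 0.39, limma adjusted p 0.160). In both the genotypes overlapped. The remaining 4 of the 10 most abundant genes are described with the changes between genotypes or with their coding partners.

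The comparison of RasV12 with control hindguts asks which of these RNAs differ with the oncogene. Of the 53 genes, 10 rose in RasV12 hindguts and 4 fell at an adjusted p under 0.05 (limma, Benjamini-Hochberg over 7155 genes). That is 26.4% of the 53 genes, 18.9% higher and 7.55% lower, where the same test called 16.7% of all genes tested, 9.04% higher and 7.7% lower. The genotypes did not overlap in all 14 called genes. Without overlap were 20 of the 53 genes (12 above and 8 below control), or 37.7%, against 32.9% of all genes tested (17.7% above and 15.3% below). The study's looser cut-offs (unadjusted p under 0.05, log2 fold change beyond 1) were also applied to the limma p-values. By these, 11 genes were higher and 7 lower (34.0%), against 22.2% of all genes tested, 12.2% higher and 9.99% lower. The study itself used DESeq after filters that removed, among others, genes of length under 500 and genes with low counts. Its own calls are therefore not reproduced here. The median log2 fold change was 0.44 over the 53 genes and 0.02 over all genes tested. Long noncoding RNA genes with a value above 0 numbered 251, 210 and 255 in RasV12 libraries and 158, 212 and 185 in control libraries. The part of read depth and of low values in these differences from all genes was not tested.

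The genes were chosen by their value in either genotype, so the counts are split here by where the value of 10 was reached, as a description. Of the 29 genes that reached 10 in both genotypes, 4 rose and 3 fell. Of the 14 that reached it in RasV12 libraries only, 6 rose and 0 fell, and of the 10 that reached it in control libraries only, 1 fell and 0 rose. Such genes passed the rule only through the genotype where they are high, so the choice itself favours these directions. The same split over all genes is not given here. The count of 14 calls also rests on few libraries. It dropped to 4 calls without RasV12 replicate 1 or 2, to 5 without RasV12 replicate 3 and to 8 without control replicate 1 or 2, and it was 12 without control replicate 3. Of these 12, 11 were among the 14, and lncRNA:CR46268 was called in addition (limma adjusted p 0.0282). Leaving a library out also lowered the count over all genes, to between 604 and 1157, against 1198 in the full set.

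**Figure D2:**
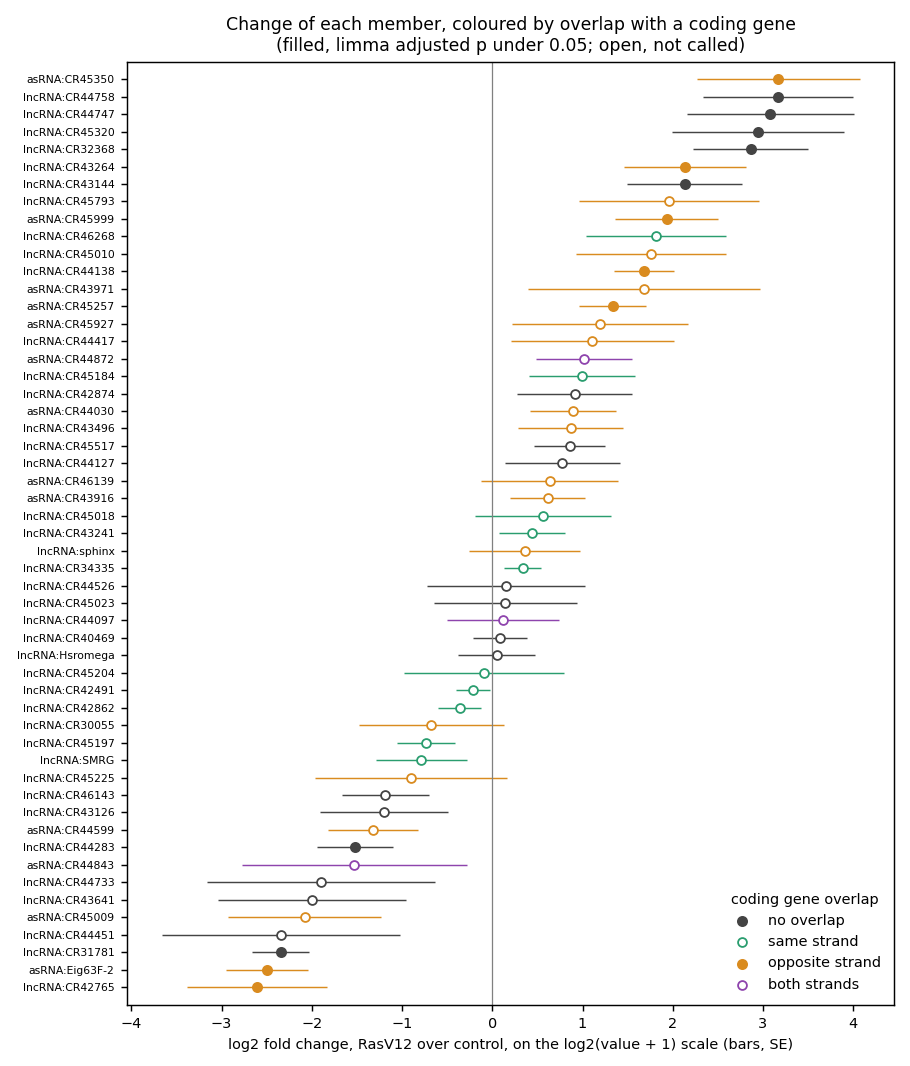
Log2 fold change of each of the 53 genes, RasV12 over control on the log2(value + 1) scale, with its SE, coloured by overlap with a coding gene. Filled points, 10 to the right of 0 and 4 to the left, had a limma adjusted p under 0.05, and none of them belongs to the 13 genes with a same-strand partner.

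Of the called genes, 3 kept their call whichever of the 6 libraries was left out, and all were measured in both genotypes. The gene lncRNA:CR31781 (2L:16869346-16878300, 4 exons, no coding overlap) had 18, 15 and 16 in RasV12 libraries, against 98, 76 and 88 in control libraries. It averaged 16.3 ± 1.53 in RasV12 and 87.3 ± 11.02 in control (SD, n = 3 each) and fell by 2.35 on the log2 scale (SE 0.315, limma adjusted p 0.000227), with a range of -2.44 to -2.26 when a library was left out. All RasV12 libraries lay far below all control libraries, and the spread within a genotype was small.

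The antisense gene asRNA:Eig63F-2 (3L:3934718-3935992) belongs to an ecdysone-induced locus and overlaps Eip63F-1, a gene of an EF-hand calcium-binding protein, by 132 bp of exon on the opposite strand. It had 4, 12 and 9 in RasV12 libraries and 45, 38 and 64 in control libraries, and fell by 2.50 on the log2 scale (SE 0.453, limma adjusted p 0.00209). Eip63F-1 had 87, 77 and 112 in RasV12 libraries and 159, 148 and 139 in control libraries (log2 fold change -0.70, adjusted p 0.0765). The coding gene's libraries also did not overlap, but its change did not pass the test.

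The gene lncRNA:CR44138 (3R:13376903-13377395) lies in CG9813 on the opposite strand, outside its exons. It had 60, 52 and 52 in RasV12 libraries and 18, 15 and 16 in control libraries, and rose by 1.68 on the log2 scale (SE 0.333, limma adjusted p 0.00357). CG9813 had 13, 14 and 14 in RasV12 libraries and 10, 9 and 7 in control libraries (0.61, adjusted p 0.414). The noncoding value was above that of the coding gene in every library, by 1.67 to 4.62 times.

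**Figure D3:**
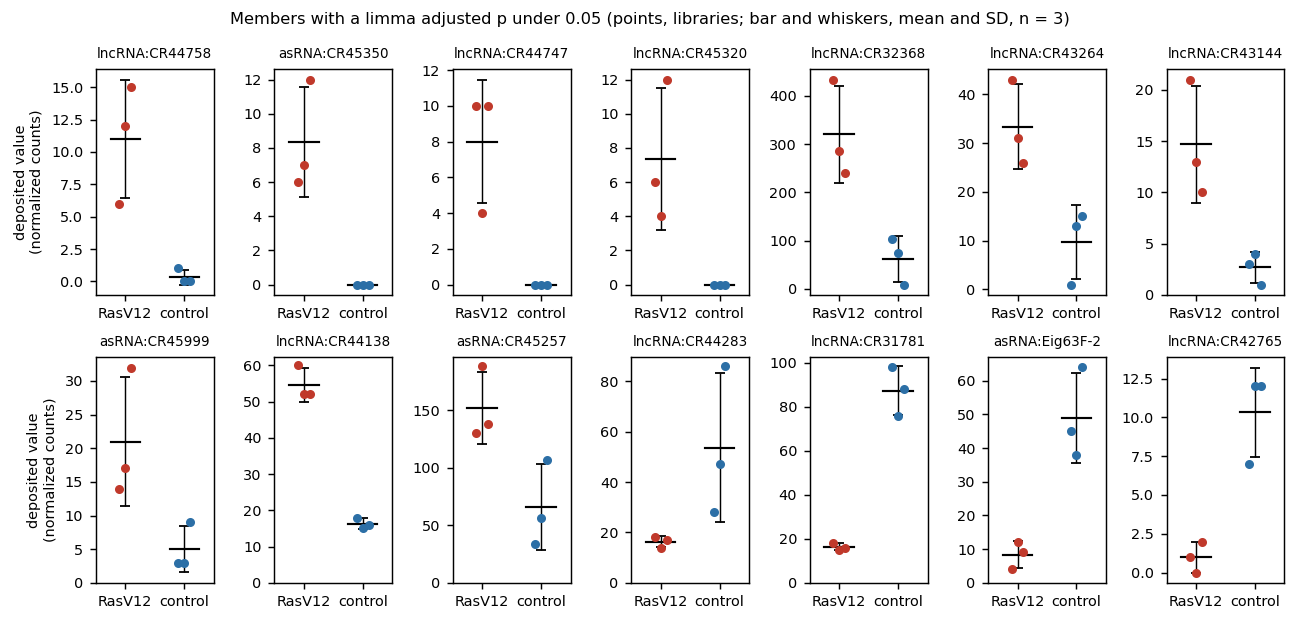
Deposited values (normalized counts, linear axes from 0) of the 14 called genes, with RasV12 on the left and control on the right of each panel. Points are libraries, and the bar and whiskers are the mean and SD (n = 3). The libraries of the genotypes do not overlap in any panel, and the control libraries of asRNA:CR45350, lncRNA:CR44747 and lncRNA:CR45320 are all at 0.

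The most abundant RNA that changed was lncRNA:CR32368, a single-exon gene at 3L:7915437-7915846 that overlaps no coding gene. It had 434, 286 and 241 in RasV12 libraries, against 103, 74 and 9 in control libraries. It rose by 2.87 on the log2 scale (SE 0.638, limma adjusted p 0.00772). The low value of control replicate 3 enlarged this estimate, which was 1.82 without that library. The call was lost without RasV12 replicate 1 or RasV12 replicate 2, with a highest adjusted p of 0.0656. Its closest coding neighbours did not change by the test: Tmem43, 316 bp away and divergent, had 11, 24 and 50 in RasV12 libraries and 25, 9 and 11 in control libraries (0.76, adjusted p 0.388), and syd, 803 bp away, had a log2 fold change of -0.17.

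The gene asRNA:CR45257 (2L:8082859-8083107) overlaps 124 bp of exon of Mcr on the opposite strand. Mcr encodes a complement-related protein of septate junctions. The antisense RNA had 130, 188 and 138 in RasV12 libraries and 34, 56 and 107 in control libraries, a rise of 1.33 on the log2 scale (SE 0.367, limma adjusted p 0.0248). Mcr had 39, 17 and 19 in RasV12 libraries and 17, 8 and 16 in control libraries (0.80, adjusted p 0.280). The RNA was 2.00 to 11.1 times its coding partner in the libraries, and its call held in 1 of 6 fits with a library left out, that without control replicate 3 (highest adjusted p 0.132).

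Further rises were seen at lower values. The gene lncRNA:CR43264 (X:5831898-5832215), inside CG15765 on the opposite strand, had 43, 31 and 26 in RasV12 libraries and 1, 13 and 15 in control libraries (2.14 ± 0.68, limma adjusted p 0.0463). Its change was 1.17 without control replicate 1, and CG15765 itself was at 0 in 5 of 6 libraries. The gene asRNA:CR45999 (3R:4395549-4397548) had 14, 17 and 32 in RasV12 libraries and 3, 3 and 9 in control libraries (1.93 ± 0.57, limma adjusted p 0.0339). It overlaps 1382 bp of exon of CG9855, which had 18, 42 and 22 in RasV12 libraries and 30, 42 and 50 in control libraries (-0.62, adjusted p 0.317). The antisense RNA and its coding partner thus had estimates of opposite sign, of which only that of the antisense RNA passed the test. The gene lncRNA:CR43144 (2L:21657625-21658249) had 21, 13 and 10 in RasV12 libraries and 3, 4 and 1 in control libraries (2.14 ± 0.64, limma adjusted p 0.0350).

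The call of lncRNA:CR43264 was lost without any 1 RasV12 library or control replicate 1, with a highest adjusted p of 0.184. That of asRNA:CR45999 was lost in 5 of 6 such fits, all but that without control replicate 3 (highest adjusted p 0.182), and that of lncRNA:CR43144 in all but that without control replicate 2 (highest 0.158). These 3 rises are less firmly measured than that of lncRNA:CR44138.

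Another 4 genes rose from few reads, with control libraries at or next to 0. The gene lncRNA:CR44758 (2R:22312876-22316604) had 6, 12 and 15 in RasV12 libraries and 1, 0 and 0 in control libraries. These stand for about 40 reads in RasV12 and 1 read in control by the estimated factors. The ratio was 27.6, with an exact 95% interval of 4.67 to 1117, which covers counting error only. The gene asRNA:CR45350 (2R:24024098-24025777) had 6, 7 and 12 in RasV12 libraries and 0 in every control library, lncRNA:CR44747 (2L:3563308-3563540) had 10, 4 and 10 and again 0 in every control library, and lncRNA:CR45320 (2R:7451670-7452365) had 6, 4 and 12, also against 0. Taking 3 as the floor per library, the last 3 were at least 2.78-fold, 2.67-fold and 2.44-fold higher in RasV12. Their limma adjusted p-values were 0.0198 for lncRNA:CR44758, 0.0283 for asRNA:CR45350, 0.0363 for lncRNA:CR44747 and 0.0497 for lncRNA:CR45320.

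None of these 4 calls held in every fit without a library. The call of lncRNA:CR44758 was lost without RasV12 replicate 2 or 3 (highest adjusted p 0.0968), and that of asRNA:CR45350 without any 1 RasV12 library (0.116). That of lncRNA:CR44747 was lost without RasV12 replicate 1, RasV12 replicate 3 or control replicate 2 (0.130), and that of lncRNA:CR45320 in 5 of 6 fits, all but that without control replicate 3 (0.181).

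The other 2 falls were also at low values. The gene lncRNA:CR44283 (2R:9161484-9161998, no coding overlap) had 18, 14 and 17 in RasV12 libraries, against 28, 47 and 86 in control libraries (-1.52 ± 0.42, limma adjusted p 0.0254). The control libraries spread widely above a narrow RasV12 group, and the call held in 1 of 6 fits with a library left out, that without control replicate 1 (highest adjusted p 0.105). The gene lncRNA:CR42765 (3R:26324499-26325294) had 1, 0 and 2 in RasV12 libraries and 7, 12 and 12 in control libraries. That is about 4 reads in RasV12 and 27 in control, a ratio of 0.102 with an exact 95% interval of 0.026 to 0.293 for counting error only. Its log2 fold change was -2.61 ± 0.78 (limma adjusted p 0.0350), and the call held only without RasV12 replicate 3 (highest 0.127). It lies in osy, an ABC transporter gene, on the opposite strand and outside its exons. The values of osy were 115, 126 and 160 in RasV12 libraries and 82, 116 and 205 in control libraries (0.08, adjusted p 0.894). The 4 falls stand beside the fall of all 9 visceral muscle markers, whose median log2 fold change was -1.50. Other marker lists also had medians below 0: hindgut (-1.34, 3 of 5 tested lower and 1 higher), fat body (-1.05, 2 of 4 lower) and ovary (-2.33, 0 of 3 called). The part of RNA from any of these tissues in the 4 falls was not tested.

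In no overlapping pair were the noncoding and the coding gene both called. Of 38 pairs of a member and an overlapping coding gene, 26 had a coding gene that was tested. The member was called in 6 of these pairs and the coding gene in 4, and both in 0 by limma and in 0 by limma-voom. The same limma test called 16.7% of all genes tested. With so few calls on either side, the absence of a pair with both called does not show that the 2 genes of a pair change separately. At an unadjusted p under 0.05 both changed in 2 pairs, asRNA:Eig63F-2 with Eip63F-1 and lncRNA:CR45197 with sgg, each with log2 fold changes below 0. By position, 5 of 19 genes with no coding overlap rose and 2 fell, and 5 of 21 with a partner on the opposite strand only rose and 2 fell. Of the 10 with a same-strand partner only and the 3 with partners on both strands, 0 were called by limma and 0 by limma-voom, and 2 of these 13, lncRNA:CR46268 and lncRNA:CR45197, had an unadjusted p under 0.05. Over all 53 genes such a p was found in 20 (37.7%, against 30.1% of all genes tested). When control replicate 3 was left out, lncRNA:CR46268 was called (limma adjusted p 0.0282). Whether the classes differ was not tested.

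**Figure D4:**
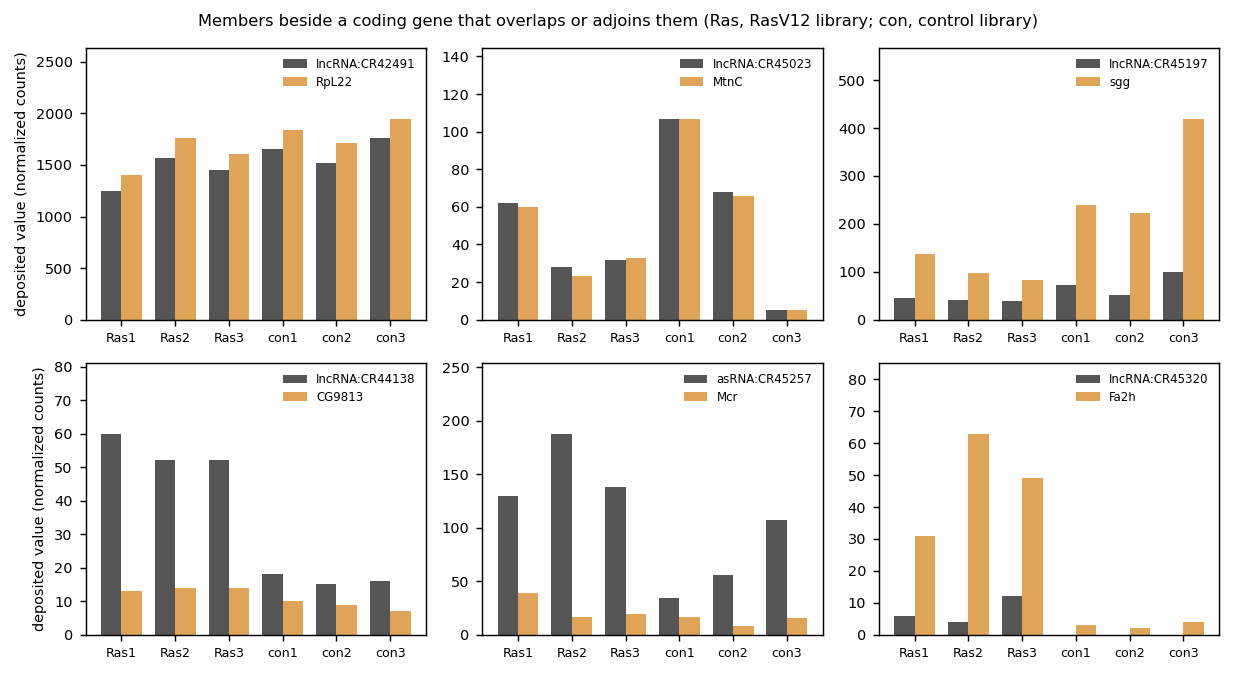
Deposited values (normalized counts, linear axes from 0) of 6 members and a coding gene that overlaps or adjoins each, by library, with the RasV12 libraries on the left. The paired bars of lncRNA:CR42491 and RpL22 and of lncRNA:CR45023 and MtnC follow each other in every library, while lncRNA:CR44138 and asRNA:CR45257 stand above their coding partners and lncRNA:CR45320 below Fa2h.

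The 4 coding partners that changed stood opposite or around RNAs that were not called. The kinase gene sgg, the fly GSK-3, fell in RasV12, with 138, 97 and 83 in RasV12 libraries and 240, 222 and 420 in control libraries (log2 fold change -1.44, limma adjusted p 0.00468). The gene lncRNA:CR45197 (X:2675188-2676657) lies on the same strand with 1470 bp of exon shared, and had 46, 42 and 40 in RasV12 libraries and 72, 51 and 100 in control libraries (-0.74 ± 0.32, adjusted p 0.137). Its libraries did not overlap between genotypes, in the direction of sgg, and its value was 0.230 to 0.482 of that of sgg. The kinase gene IP3K2 had 28, 14 and 18 in RasV12 libraries and 74, 47 and 56 in control libraries (-1.54, adjusted p 0.0112), while lncRNA:CR45018 inside it had 23, 4 and 3 in RasV12 libraries and 4, 4 and 5 in control libraries. Only RasV12 replicate 1 was high there.

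The prolyl hydroxylase gene Hph, which acts on the hypoxia factor, had 147, 261 and 220 in RasV12 libraries and 89, 100 and 91 in control libraries (1.12, limma adjusted p 0.0114). The gene lncRNA:CR45793 on its opposite strand had 3, 3 and 10 in RasV12 libraries and 0, 2 and 0 in control libraries (1.96 ± 0.99, adjusted p 0.207). The CTP synthase gene Ctps had 6, 9 and 5 in RasV12 libraries and 45, 14 and 24 in control libraries (-1.79, adjusted p 0.0306), and asRNA:CR43971 on its opposite strand had 10, 0 and 2 in RasV12 libraries and 0 in every control library. These RNAs reached the threshold in 1 library each.

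Neighbours without overlap gave 3 cases, singled out after their values were seen, in which a called RNA lay within 1000 bp of a called coding gene, among 10 called RNAs with a coding neighbour that near. The same test called 16.7% of all genes tested, so a few called neighbours occur in any such set. All 3 were divergent pairs, with start sites facing away from each other, and moved the same way. Not every divergent neighbour of a called RNA was called. Tmem43, 316 bp from lncRNA:CR32368 (0.76, limma adjusted p 0.388), and wdp, given below, are also divergent and did not pass the test. The convergent neighbours CG10866, Xxylt, CG9853 and syd did not pass it either. Fa2h, a fatty acid 2-hydroxylase gene 116 bp from lncRNA:CR45320, had 31, 63 and 49 in RasV12 libraries and 3, 2 and 4 in control libraries (3.58 ± 0.48, limma adjusted p 0.000227). EbpIII, 394 bp from asRNA:CR45350, rose by 2.24 ± 0.24 (adjusted p 4.1e-05). CG8008, 47 bp from lncRNA:CR44283, fell by 0.79 on the log2 scale (SE 0.219, adjusted p 0.0257). Among the other called RNAs, wdp, 938 bp from lncRNA:CR44758, had 201, 187 and 197 in RasV12 libraries and 181, 100 and 92 in control libraries (0.71, adjusted p 0.104), Cul2, 485 bp from lncRNA:CR43144, had a log2 fold change of -0.27, and Bsg, 312 bp from asRNA:CR45257, one of -0.36, and none of these passed the test. The gene lncRNA:CR44747 had no coding gene closer than CG43815, 12670 bp away.

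Of 15 members without overlap that had a coding gene within 1000 bp, 3 lay downstream of one on the same strand, where reads past the end of the coding gene would fall. One hindgut gene stood near a member: fkh, the fly FoxA factor needed for hindgut formation, lies 783 bp from lncRNA:CR43126 on the divergent strand and was also looked at after its values were seen. It had 250, 142 and 111 in RasV12 libraries and 336, 505 and 481 in control libraries (-1.45, limma adjusted p 0.00450). The RNA had 2, 3 and 21 in RasV12 libraries and 18, 12 and 12 in control libraries (-1.20 ± 0.71, adjusted p 0.279). Its genotypes overlapped because of RasV12 replicate 3.

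The other genes with a same-strand coding partner did not pass the test. The gene lncRNA:CR45184, which holds 5 snoRNAs, lies in the splicing factor gene Sf3b3 and had 13, 22 and 13 in RasV12 libraries and 4, 18 and 5 in control libraries. The gene lncRNA:SMRG overlaps Tis11, a zinc finger gene of mRNA decay, by 1874 bp of exon and had 13, 6 and 6 in RasV12 libraries and 14, 17 and 12 in control libraries. The gene lncRNA:CR45204 overlaps Imp, an mRNA-binding protein gene, and had 5, 8 and 1 in RasV12 libraries and 1, 4 and 12 in control libraries. Adjusted p-values (limma) were 0.277 for lncRNA:CR45184, 0.324 for lncRNA:SMRG and 0.958 for lncRNA:CR45204. The gene lncRNA:CR43241, with annotated transposon sequence in an exon, had 28, 38 and 27 in RasV12 libraries and 27, 24 and 17 in control libraries. The gene lncRNA:CR46268 had 19, 13 and 54 in RasV12 libraries and 1, 7 and 21 in control libraries, while its partner CG17490 had at most 4.

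Of the lncRNA: genes not yet described, lncRNA:CR46143 (3R:7995985-7997435), upstream of the fatty acid elongase gene Elovl7, had 31, 9 and 32 in RasV12 libraries and 38, 39 and 79 in control libraries. The genotypes did not overlap, but the change of -1.19 ± 0.48 did not pass the test (limma adjusted p 0.116). Another 8 genes (lncRNA:CR43496, lncRNA:CR44097, lncRNA:CR42874, lncRNA:CR44127, lncRNA:CR30055, lncRNA:CR44417, lncRNA:CR45225 and lncRNA:CR43641) had values of at most 30 and adjusted p-values of 0.219 to 0.925.

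The 13 genes with an asRNA: symbol all overlapped a coding gene on the opposite strand, and 3 rose and 1 fell, as given above. Of the other 9, asRNA:CR44599, opposite the double-stranded RNA-binding protein gene loqs, came closest to the threshold, with 5, 9 and 13 in RasV12 libraries and 14, 28 and 29 in control libraries (-1.32 ± 0.50, limma adjusted p 0.0896). The genotypes did not overlap in it, nor in asRNA:CR45009, with 3, 0 and 1 in RasV12 libraries and 10, 10 and 4 in control libraries (-2.08 ± 0.84, adjusted p 0.115). A neighbour on the same strand opposite the same gene, lncRNA:CR45010, had 13, 11 and 23 in RasV12 libraries and 7, 12 and 0 in control libraries, an estimate of the other sign (1.76 ± 0.83, adjusted p 0.175). Both lie opposite FucTC, whose value was at most 4. The remaining 7 had values of at most 36 and adjusted p-values of 0.225 to 0.614.

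Of 13 long noncoding RNA genes of known role that occur in the files, 2 were among the 53. Hsromega (3R:21296127-21317836), a heat-inducible nuclear RNA, had 34, 63 and 22 in RasV12 libraries and 37, 23 and 50 in control libraries. The genotypes overlapped widely, and the log2 fold change of 0.05 ± 0.43 (limma adjusted p 0.953) turned to -0.01 with scaling to library totals or upper quartiles. Of 7 tested genes for proteins of omega speckles, 0 were called by limma or by limma-voom and 0 had an unadjusted p under 0.05 (median log2 fold change -0.43). Over all genes tested, limma called 16.7%, and 30.1% had such an unadjusted p. A list this small can therefore hold 0 calls, which does not show that its genes were unchanged. The gene sphinx (4:975168-977261), a young gene linked to male courtship, lies opposite fuss and had 8, 6 and 9 in RasV12 libraries and 11, 4 and 4 in control libraries (0.36, adjusted p 0.742).

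The other 11 known genes stayed under the threshold, with a highest value of 6. The dosage compensation RNA roX1 had 1, 5 and 4 in RasV12 libraries and 1, 4 and 0 in control libraries, and roX2 had 0, 0 and 1 in RasV12 libraries and 0 in every control library, in flies that were all female. Of 4 tested genes of the dosage compensation complex, 0 were called by limma or limma-voom and 0 had an unadjusted p under 0.05 (median -0.40). With 16.7% of all genes called by limma and 30.1% at such an unadjusted p, 0 of 4 does not show that they were unchanged. At 0 in every library were 5 genes: iab8, bxd, acal, cherub and flam. The snoRNA host Uhg2 had 15, 11 and 29 in RasV12 libraries and 11, 12 and 9 in control libraries. The host Uhg4 had 11, 14 and 11 in RasV12 libraries and 14, 5 and 7 in control libraries, and Uhg7 had 11, 14 and 10 in RasV12 libraries and 8, 7 and 9 in control libraries. These 3 host genes reached 10, but their symbols lack the lncRNA: prefix and they are not counted here. Of genes that act on noncoding transcripts in general, 0 of 6 tested for the nuclear exosome (median 0.33) and 0 of 11 tested for 3′ end processing (median 0.13) were called by limma or limma-voom. At an unadjusted p under 0.05 there were 0 of the exosome genes and 1 of the 3′ end processing genes, Cpsf73, at 1.62 on the log2 scale. Beside the same shares of all genes, these lists are also too small to show that their genes were unchanged.

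The threshold cuts through a dense range of low values. Just inside it, with a highest value of 10, lay asRNA:CR43971 and asRNA:CR45009, given above, and lncRNA:CR44526, with 10, 1 and 4 in RasV12 libraries and 7, 4 and 1 in control libraries, besides lncRNA:CR44747 and lncRNA:CR45793. Just outside it, with a highest value of 9, lay 11 genes, of which the first 3 by symbol are given. The gene asRNA:CR44019 had values of 9, 9 and 9 in RasV12 libraries and 0, 3 and 0 in control libraries. The next was asRNA:CR45907, with 4, 9 and 1 in RasV12 libraries and 0, 3 and 0 in control libraries, and the last of these was lncRNA:CR33963, with 5, 9 and 6 in RasV12 libraries and 0 in every control library. Others of the 11 had their highest value in a control library, such as lncRNA:CR43148, with 3, 6 and 6 in RasV12 libraries and 4, 8 and 9 in control libraries, and lncRNA:CR45321, with 0 in every RasV12 library and 0, 0 and 9 in control libraries. Because the read value of 1 unit differs between libraries, 10 cannot occur in control replicate 3.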

How the data were processed

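Libraries were QuantSeq 3′ mRNA preparations run on an Ion Proton, per the labels. According to the study's methods, hisat2 placed reads on dm6, bowtie2 was given those left unmapped, and genotypes were compared through metaseqR2. That step used DESeq and a setting named utr, and the methods do not spell out which regions of a gene this setting counted. The counter, its strand setting, the annotation release and tool versions are not given in the sources used here. The deposited values are a score per gene: normalized counts rounded to whole numbers, so they were not treated as read counts. Each library's factor was estimated from how often each low whole number occurs in its file, so that read numbers given here are approximate.

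Samples were grouped by genotype. Genes with a value of 10 or more in at least 1 library (7155) were fitted with limma 3.58.1 in R 4.3.3 on log2(value + 1), with the deposited scaling kept, two-sided tests, a trended prior variance and Benjamini-Hochberg adjustment. Fold changes on this scale understate the change of low genes. Positions and overlaps (1 bp or more) came from Ensembl 115, matched to 17520 of 17617 identifiers. Of the 97 without a symbol, 36 reached 10 and could not be considered. In a test on simulated data, 162 of 200 genes with a log2 change of 2 were called (81%), with 3 false calls among the 6720 genes run. The changed genes all had a mean value of 10 or more, and the same spread setting was used for every gene. The 81% therefore does not cover the 24 of the 53 genes with a mean under 10.

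Genes named are the called members without overlap between genotypes, the 10 most abundant members, those of known role, those next to the threshold and the coding genes that overlap the first 3 kinds. Any other gene was named after its values were seen. The members and lists were chosen with earlier results of these data known. Alternatives were other scalings, filters, pseudocounts, limma without trend, limma-voom, the replicate block, leaving out each library and the study's cut-offs on limma p-values. Added after seeing the data was a count without lncRNA:CR42491 and lncRNA:CR45023.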

Additional observations from a re-analysis of the deposited data

How the results depend on the processing

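The 14 calls among the 53 genes (10 higher, 4 lower) changed in number with several settings. A value of 10 in 3 libraries gave 8 (5 higher) and genes of 500 bp or more 8 (4 higher), where 9 of the 14 were still tested under each filter and 8 of those 9 kept the call. The calls were 9 by limma without the variance trend (6 higher, with 704 over all genes against 1198) and 8 by limma-voom (5 higher). The study's cut-offs, applied to limma p-values, gave 18 (11 higher, 7 lower), or 34.0%, against 22.2% of all genes. Leaving out a library gave 4 to 12 calls, 2 to 10 higher and 2 to 3 lower, with 604 to 1157 over all genes. The other scalings, pseudocounts and no filter gave 11 to 14, and without lncRNA:CR42491 and lncRNA:CR45023 there were 14. Of the 34 genes on a coding gene, 26 had exon overlap, 13 a same-strand and 24 an opposite-strand partner. The cause of the other shifts was not tested.

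The replicate numbers are shared by the genotypes, but samples with the same number did not deviate together (correlations -0.05, 0.00 and -0.01), so the numbers were not taken as pairs. With the replicate block, 10 members were called (7 higher, 3 lower), all among the 14, and 1058 genes in all.

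Over 26 named members and 425 fits, 344 kept sign and side of the threshold, 70 lost the call and 11 changed sign, all in members that were not called. These were lncRNA:CR40469 (-0.08, -0.06 and -0.18 without RasV12 replicate 3, control replicate 2 and control replicate 3, at most 0.49), lncRNA:CR45023 (-0.20 and -1.14 without RasV12 replicate 1 and control replicate 3, at most 0.95), lncRNA:CR44526 (-0.45 and -0.40 without the same libraries, at most 0.78) and Hsromega (-0.34 and -0.24 without RasV12 replicate 2 and control replicate 2, at most 0.40 without a library, -0.011 with library totals and -0.0078 with upper quartiles). For the 24 genes with a mean value under 10, values rest on few reads.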

Other observations

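The gene lncRNA:CR44451 (2R:9214095-9215145), singled out after its values were seen, had 3, 2 and 1 in RasV12 libraries and 1, 260 and 5 in control libraries, so that 1 library, control replicate 2, held nearly all of its signal (log2 fold change -2.34 ± 1.32, limma adjusted p 0.254). The same library had the highest sum of fat body markers, 10425, against 5370 and 3942 in the other control libraries, and the part of this in the value was not tested. The genes lncRNA:CR44733, with 0 in every RasV12 library and 0, 12 and 3 in control libraries, and asRNA:CR44843, with 0, 0 and 1 in RasV12 libraries and 0, 2 and 15 in control libraries, also rested mainly on 1 library.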
